A study of Homo sapiens with 9 samples.

Results

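The cholesterol and fatty acid synthesis genes are the enzymes that build sterols and fatty acids from acetyl-CoA, together with the proteins that sense cellular sterol and switch those enzymes on. The list names 33 genes, chosen by symbol, and each was read from the brightest probe set that the array annotation assigns to that symbol alone. Of these, 31 were measured, among 18417 genes that have such a probe set and 11233 that also reached a log2 signal of 5 on at least 1 array, as all 31 did. FDFT1 was not matched to a probe set in the annotation used here, and HSD17B7 was matched only to a probe set shared with a second symbol, so these 2 were not analysed here. The arrays were Affymetrix Human Gene 1.0 ST arrays, and a signal is the log2 intensity of a probe set after RMA normalization by the authors.

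The 9 arrays carry labels of SK-BR-3, an ERBB2-amplified human breast cancer line of luminal type: 3 of cells stably transfected with TFPIα cDNA, 3 with TFPIβ cDNA and 3 with the empty pTOPO vector. TFPIα and TFPIβ are splice isoforms of tissue factor pathway inhibitor, an inhibitor of blood coagulation. The transfected cells of all groups had been drug-selected (puromycin by the labels, neomycin by the study's methods). The study describes the TFPIα and TFPIβ lines as pools, and does not say whether the empty vector cells were one. The 3 replicates of a group came from separate RNA isolations of 1 cell line, so p-values measure the spread between isolations. The replicates are numbered 1 to 3 in each group.

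On these values the overexpressed gene gave no check of the vector labels. TFPI had signals of 5.66, 5.81 and 5.51 on the arrays labelled TFPIα, of 5.55, 5.79 and 5.81 on those labelled TFPIβ and of 5.81, 6.48 and 6.45 on those labelled empty vector, so it was not higher in either transfected group (log2 fold change -0.59 and -0.53, limma adjusted p = 0.335 and 1.0). By the study's account the cDNAs held only the coding region, and the array probes in the untranslated regions of TFPI could not read them, so this probe set may miss the transgene. The study does report higher TFPI in both transfected lines, from qRT-PCR and antigen measurements of its earlier work. It also reports an increase on the arrays with PLIER, another way to summarize the probes. Those values were not used here. KRT5 and KRT14, keratins of basal epithelium, had signals of 12.40 to 12.83 and 11.99 to 12.74 and were the measured 2 of 4 basal markers. Of 6 luminal markers ERBB2, KRT8, KRT19, GATA3 and FOXA1 lay at 4.64 to 6.24, and only KRT18 was bright, at 9.49 to 10.76. These markers do not bear out the labelled cell line, and no other check of the vectors was made here, so every direction given is one between arrays as labelled.

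Cholesterol synthesis starts with the condensation of acetyl-CoA units, passes through mevalonate and the isoprenoid farnesyl diphosphate, and after squalene has been closed into a ring it ends in a series of demethylations, reductions and isomerizations. Fatty acid synthesis draws on the same acetyl-CoA, which ACLY and ACSS2 supply, ACACA carboxylates and FASN assembles into chains. Both routes are driven by the SREBP transcription factors, which SREBF1 and SREBF2 encode: when sterol is low, SCAP escorts the SREBP precursors from the endoplasmic reticulum to the Golgi for cleavage, and when sterol is high, the INSIG proteins hold SCAP back. SREBP target promoters usually carry a CCAAT box for the factor NF-Y or a GC box for Sp1 beside the SREBP site, so the enzymes tend to be expressed together.

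RefSeq promoter windows (GRCh38.p14, 250 bases before to 50 after the start) were at hand for 29 of the 33 genes, as 42 windows, with none for SQLE, ACAT2, FDFT1 and FASN. On either strand, CCAAT occurred in 25 of the 42 windows (59.5%), against 34.6% of 35116 windows of all genes. The GC box GGGCGG occurred in 37 (88.1%, against 45.0%), the E-box CACGTG in 5 (11.9%, against 7.26%) and the sterol regulatory element TCACNCCAC in 1 (2.38%, against 1.13%), that of SREBF2. CCAAT was in no window of CYP51A1, ELOVL6, FADS1, INSIG2, LPIN1, PMVK, SCAP or SREBF1. These letter matches are a description of the windows and do not show binding.

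The 250 bases before the start are shown for 5 genes: MVK, DHCR7 and EBP, enzymes with several CCAAT boxes whose signal was lowest on replicate 2 in every group (below), and SREBF2 and SREBF1, the genes of the SREBP factors, which differ in these matches and in their signals. They lie at chr12:109573544-109573793 (plus strand, MVK), chr11:71448394-71448643 (minus strand, the DHCR7 window with CCAAT, of 2), chrX:48521558-48521807 (plus strand, EBP), chr22:41832855-41833104 (plus strand, SREBF2) and chr17:17836987-17837236 (minus strand, SREBF1). Capitals mark CCAAT or its reverse complement ATTGG, of which MVK has 5, EBP 3, DHCR7 2, SREBF2 1 and SREBF1 0, and in SREBF2 also the sterol regulatory element. Whether CCAAT goes with the replicate 2 pattern was not tested. CYP51A1, ELOVL6 and FADS1 were lowest on replicate 2 in every group without CCAAT in their windows, and NSDHL, with 5 matches, was not.
MVK: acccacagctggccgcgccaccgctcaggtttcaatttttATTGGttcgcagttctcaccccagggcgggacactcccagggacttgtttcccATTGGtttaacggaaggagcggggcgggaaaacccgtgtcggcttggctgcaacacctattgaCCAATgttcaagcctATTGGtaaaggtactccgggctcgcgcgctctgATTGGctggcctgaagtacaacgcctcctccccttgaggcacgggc
DHCR7: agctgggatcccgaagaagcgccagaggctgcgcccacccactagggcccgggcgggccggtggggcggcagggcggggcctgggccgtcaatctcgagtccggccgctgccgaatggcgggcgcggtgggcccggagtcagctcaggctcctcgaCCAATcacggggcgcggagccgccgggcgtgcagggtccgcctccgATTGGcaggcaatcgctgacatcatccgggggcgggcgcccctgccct
EBP: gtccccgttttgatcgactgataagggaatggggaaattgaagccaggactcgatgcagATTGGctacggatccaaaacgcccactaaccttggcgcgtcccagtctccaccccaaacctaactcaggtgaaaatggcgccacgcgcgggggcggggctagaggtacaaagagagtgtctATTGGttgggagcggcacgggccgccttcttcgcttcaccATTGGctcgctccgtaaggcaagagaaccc
SREBF2: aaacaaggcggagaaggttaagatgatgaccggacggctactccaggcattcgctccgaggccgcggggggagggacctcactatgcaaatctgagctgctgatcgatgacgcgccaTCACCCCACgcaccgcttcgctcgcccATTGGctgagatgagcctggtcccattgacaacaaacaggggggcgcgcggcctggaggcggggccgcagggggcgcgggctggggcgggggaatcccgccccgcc
SREBF1: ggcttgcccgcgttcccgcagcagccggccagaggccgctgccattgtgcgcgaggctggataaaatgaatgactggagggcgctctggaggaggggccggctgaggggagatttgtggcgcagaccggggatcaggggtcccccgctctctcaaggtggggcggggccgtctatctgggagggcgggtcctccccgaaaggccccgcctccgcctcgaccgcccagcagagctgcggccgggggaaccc

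The members were measured at signals well inside the range of the arrays, with a median of 7.97 over the 31 genes, against 6.50 over all 17482 probe sets that reached a signal of 5 and were tested. Their standard deviation over the 9 arrays ran between 0.083 for SCAP and 0.505 for ACAT2. Its median was 0.278, against 0.190 over all probe sets tested, and 23 of the 31 members lay above that second value. The members that varied most after ACAT2 were ELOVL6 (0.474), FASN (0.439), SCD (0.414), HMGCS1 (0.411) and LPIN1 (0.405). The heatmap of the members by array shows where this variation lay.

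**Figure D1:**
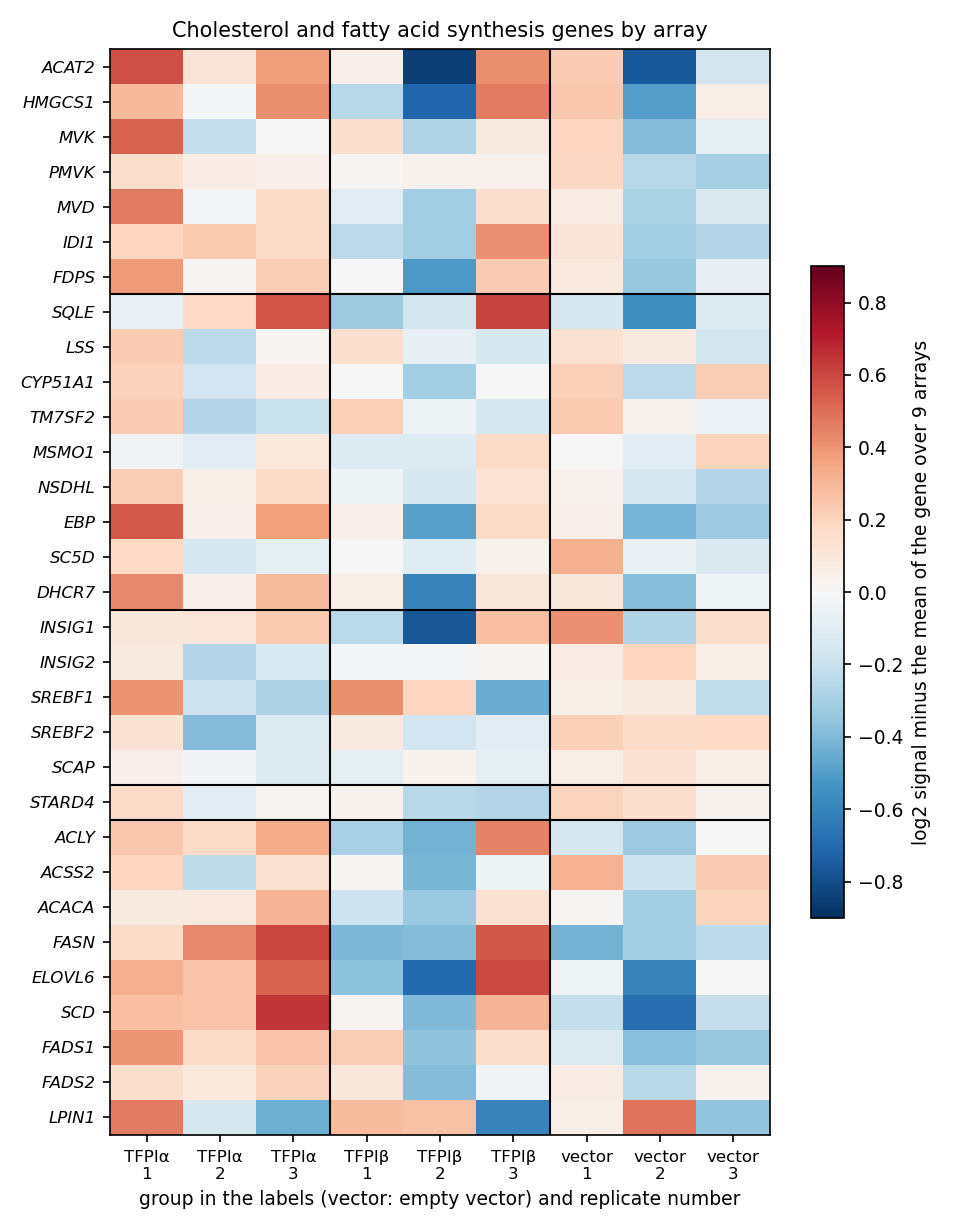
Log2 signal of each of the 31 measured members minus its mean over the 9 arrays, on a colour scale, with genes in rows and arrays in columns by labelled group and replicate number. Black lines separate the groups and, from top to bottom, the mevalonate steps, the sterol steps, the sterol sensing genes, STARD4 and the fatty acid and lipid synthesis genes. TFPIβ replicate 2 and empty vector replicate 2 are blue in most rows, with 4 and 8 of 31 members above their own mean, and TFPIα replicate 1 is red in 29 of 31.

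The mean signal over the 31 members was 8.42, 8.17 and 8.33 on the arrays labelled TFPIα, 8.15, 7.88 and 8.29 on those labelled TFPIβ and 8.25, 7.96 and 8.11 on those labelled empty vector, for replicates 1, 2 and 3. In each group replicate 2 was the lowest array, and the groups overlapped. As group means this was 8.31 ± 0.13 for TFPIα, 8.10 ± 0.21 for TFPIβ and 8.11 ± 0.15 for empty vector (SD, n = 3 each). TFPIα lay 0.201 above empty vector, and by 0.169, 0.211 and 0.223 within replicates 1, 2 and 3. Leaving out single arrays moved this difference to between 0.126 (without empty vector replicate 2) and 0.276 (without empty vector replicate 1). TFPIβ minus empty vector was -0.0014, with differences of -0.109, -0.077 and 0.182 within the 3 numbers, and between -0.094 (without TFPIβ replicate 3) and 0.112 (without TFPIβ replicate 2) when single arrays were left out. No test was made of these means, since the members were chosen with results known. Medians of the arrays over the tested probe sets lay between 6.45 and 6.55, and were lowest for TFPIβ replicate 2 and empty vector replicate 2.

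**Figure D2:**
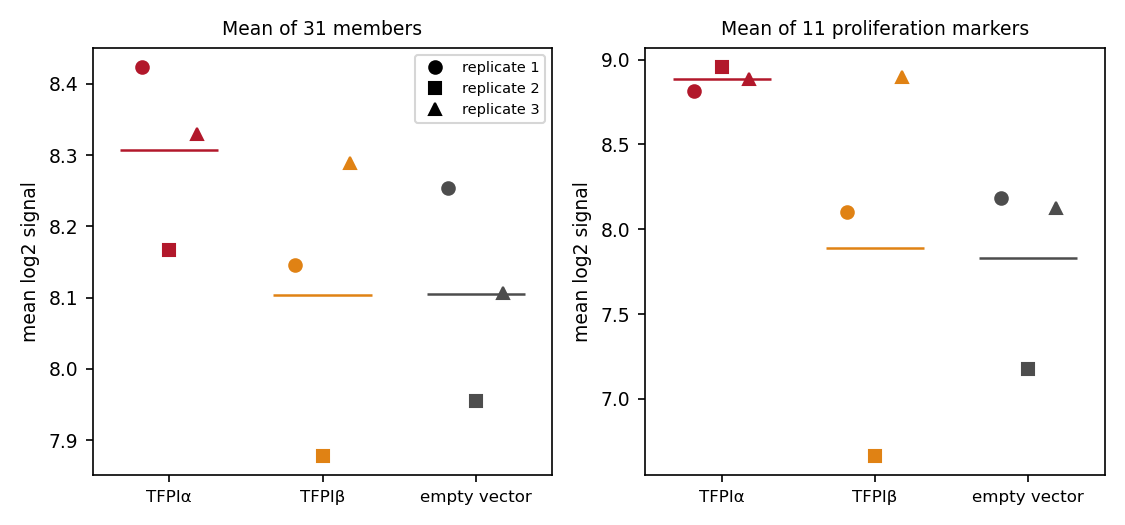
Mean log2 signal per array over the 31 members (left) and over 11 proliferation markers (right), for arrays labelled TFPIα, TFPIβ and empty vector. Symbols give the replicate number and lines the group means. The members' mean is lowest on replicate 2 in all 3 groups, and TFPIβ replicate 2, at 7.88 and 6.66, is the lowest array in both panels.

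With TFPIα against empty vector, all 7 mevalonate steps and 7 of 9 fatty acid genes had log2 fold changes above 0, as did 4 of 9 later sterol steps and 2 of 5 sensing genes, and no member passed the test. A call required at least a 2-fold difference and an adjusted p under 0.05 (limma over all 9 arrays, Benjamini-Hochberg over the 17482 probe sets). Of the 31 members 0 were called, against 0.00572% of all probe sets (1), and the lowest adjusted p of a member was 0.335. The median log2 fold change of the members was 0.20, against 0.00 over all probe sets tested, with 20 of 31 above 0. At an unadjusted p under 0.05, 5 members were higher and 1 was lower, against 8.59% and 5.58% of all probe sets. The 2 sets of 3 arrays did not overlap for 9 members that were higher (ACLY, ELOVL6, FADS1, FADS2, FASN, IDI1, NSDHL, SCD and SQLE) and 2 that were lower (SCAP and SREBF2), against 14.4% and 8.85%.

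SCD, the desaturase that makes oleate from stearate, had the largest difference. Its signals were 10.38, 10.37 and 10.76 on the arrays labelled TFPIα and 9.90, 9.43 and 9.90 on those labelled empty vector, so that every TFPIα array was above every empty vector array. The log2 fold change was 0.76 (standard error 0.21, 1.70-fold, adjusted p = 0.335). FASN, the synthase of palmitate, had 8.72, 8.99 and 9.16 on TFPIα arrays against 8.13, 8.25 and 8.32 on empty vector arrays, again without overlap (log2 fold change 0.73, standard error 0.25, adjusted p = 0.335). FADS1, which desaturates polyunsaturated fatty acids, had 9.39, 9.16 and 9.25 on TFPIα arrays against 8.86, 8.61 and 8.64 on empty vector arrays (0.56, standard error 0.16, adjusted p = 0.335). In these 3 genes the difference between the group means was wider than the range of the arrays within either group.

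The other fatty acid genes divided. On the scale of log2 fold changes, ELOVL6, which lengthens palmitate, had 0.58 (standard error 0.31), and ACLY, which splits citrate into acetyl-CoA, 0.40 (standard error 0.21). FADS2, the partner desaturase of FADS1, and ACACA, the acetyl-CoA carboxylase, had 0.20 and 0.19 (standard errors 0.14 and 0.16). ACSS2, which makes acetyl-CoA from acetate, had 7.57, 7.15 and 7.51 on TFPIα arrays against 7.68, 7.18 and 7.60 on empty vector arrays, which overlap closely. LPIN1, a phosphatidate phosphatase of triglyceride synthesis and a coactivator, had 9.03, 8.42 and 8.12 on TFPIα arrays against 8.62, 9.05 and 8.21 on empty vector arrays, with no separation. Over the 9 genes the median was 0.40, with 7 above 0.

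All 7 mevalonate-step genes had log2 fold changes above 0, between 0.20 and 0.59, with a median of 0.32. ACAT2, the thiolase that joins acetyl-CoA units, had signals of 9.23, 8.77 and 9.03 on TFPIα arrays against 8.88, 7.89 and 8.48 on empty vector arrays, and the groups overlapped (0.59, standard error 0.35). HMGCS1, which makes HMG-CoA, had 0.30 (standard error 0.30). The isomerase IDI1 had 0.35, the decarboxylase MVD 0.32, the farnesyl diphosphate synthase FDPS 0.32 and the kinase PMVK 0.21, each beyond 1 standard error, at adjusted p = 0.396 to 0.465. MVK, mevalonate kinase, had 7.04, 6.31 and 6.52 on TFPIα arrays against 6.71, 6.13 and 6.43 on empty vector arrays. Each MVK array labelled TFPIα was above the empty vector array of the same number, but the spread across numbers was wider than that difference.

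The 9 sterol steps had a median of -0.01, with 4 genes above 0. EBP, the sterol isomerase, had 9.39, 8.88 and 9.21 on TFPIα arrays against 8.88, 8.42 and 8.51 on empty vector arrays. Its groups met only between TFPIα replicate 2 and empty vector replicate 1, and its log2 fold change was 0.55 (standard error 0.21, adjusted p = 0.344). SQLE, squalene epoxidase, had 0.50 (standard error 0.26), DHCR7, the last reductase of the pathway, 0.36 (standard error 0.21) and NSDHL, which takes part in removing methyl groups from the ring, 0.27 (standard error 0.11, adjusted p = 0.346). The remaining 5 were LSS, which closes the ring, the demethylase CYP51A1, the reductase TM7SF2, the methyl oxidase MSMO1 and the desaturase SC5D, and each of these lay within 1 standard error of 0. A second probe set of CYP51A1 had a difference of 0.00.

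In the sensing genes the median was -0.11, with 2 of 5 above 0. SREBF2, the SREBP gene tied mainly to cholesterol synthesis, had 7.28, 6.76 and 7.03 on TFPIα arrays against 7.36, 7.32 and 7.33 on empty vector arrays. All 3 TFPIα arrays were below the narrow range of empty vector (log2 fold change -0.31, standard error 0.13, adjusted p = 0.349). SCAP had -0.11 (standard error 0.08) and INSIG2 -0.22 (standard error 0.10). SREBF1, the SREBP gene tied mainly to fatty acid synthesis, had 7.29, 6.69 and 6.61 on TFPIα arrays against 6.94, 6.97 and 6.66 on empty vector arrays, with a 95% confidence interval of the log2 fold change of -0.57 to 0.59. INSIG1, itself an SREBP target, had 9.10, 9.11 and 9.24 on TFPIα arrays against 9.41, 8.73 and 9.16 on empty vector arrays (interval -0.55 to 0.65). STARD4, a carrier of cholesterol between membranes, had 8.15, 7.87 and 8.0 on TFPIα arrays against 8.17, 8.12 and 8.01 on empty vector arrays, which overlap.

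With the replicate number as a block, 12 members were higher and 1 was lower at an unadjusted p under 0.05, against 11.9% and 8.38% of all probe sets in that fit, with a lowest adjusted p of 0.168 and 0 called. Leaving out 1 array at a time moved the 5 higher members to between 2 (without TFPIα replicate 3, against 3.61% of all probe sets) and 9 (without TFPIβ replicate 3, against 11.8%).

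**Figure D3:**
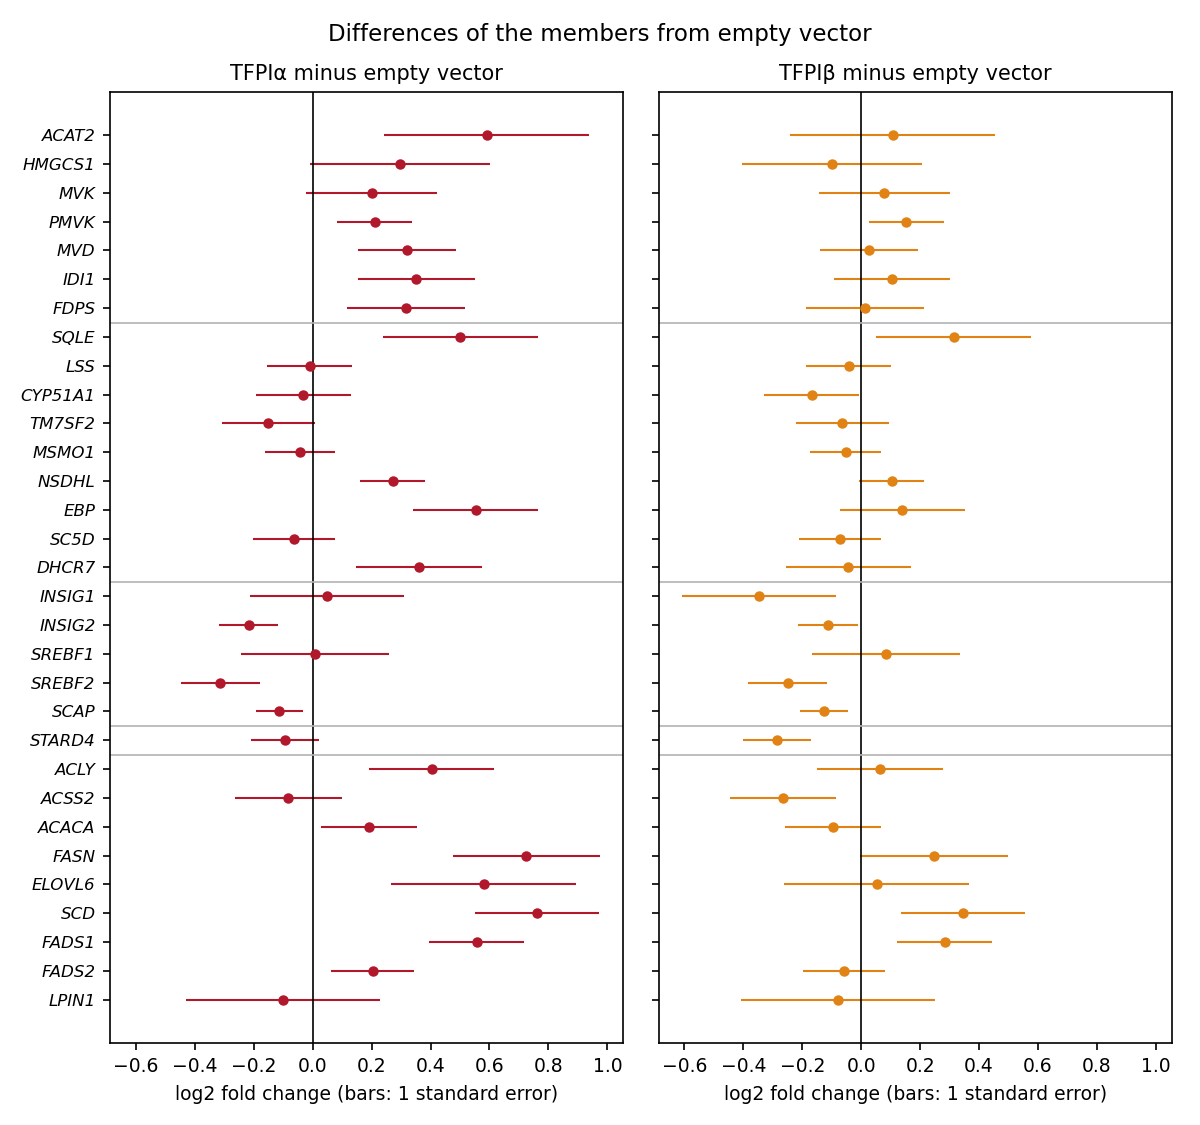
Log2 fold change of each measured member for TFPIα minus empty vector (left) and TFPIβ minus empty vector (right), with bars of 1 standard error from limma. Grey lines separate the roles in the same order as in the heatmap. On the left the mevalonate steps at the top and most fatty acid genes at the bottom lie above 0, and on the right 15 of 31 do, with SCD highest at 0.35.

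With TFPIβ against empty vector the members showed no common direction. A member was called in 0 of 31 cases, as was a probe set in 0% of all 17482, where 436 and 390 had an unadjusted p under 0.05 upward and downward and the one-way model without variance moderation also called 0. The median of the members was -0.04, against 0.00 over all probe sets, and 15 lay above 0 and 16 below. At an unadjusted p under 0.05, 0 members were higher and 1 was lower, against 2.49% and 2.23% of all probe sets, and adjusted p was 1.0 for all 31. The groups did not overlap for 0 members that were higher and 3 that were lower (INSIG2, SCAP and SREBF2), against 3.43% and 3.74%. These comparisons use the same 3 empty vector arrays as those of TFPIα. The study, by contrast, reports many differentially expressed transcripts for both isoforms, with more for TFPIβ than for TFPIα. The values used here did not reproduce calls in such numbers. At an adjusted p under 0.10, limma called 1 probe set in TFPIα and 0 in TFPIβ against empty vector. The one-way model had lowest adjusted p-values of 0.330 and 0.652 in these comparisons. The reason for the difference was not tested.

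STARD4 was the member with the lowest p. It had signals of 8.01, 7.73 and 7.71 on the arrays labelled TFPIβ against 8.17, 8.12 and 8.01 on those labelled empty vector, where the highest TFPIβ array just reached the lowest empty vector array (log2 fold change -0.29, standard error 0.11). SREBF2 had 7.23, 6.97 and 7.05 on TFPIβ arrays, all below the empty vector range of 7.32 to 7.36 (-0.25, standard error 0.13). ACSS2 had 7.38, 6.96 and 7.33 on TFPIβ arrays against 7.68, 7.18 and 7.60 on empty vector arrays, and each was below the empty vector array of its number (-0.27, standard error 0.18). INSIG1 had 8.76, 8.23 and 9.27 on TFPIβ arrays against 9.41, 8.73 and 9.16 on empty vector arrays (-0.35, standard error 0.26), so that replicate 3 ran opposite to the other two.

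The fatty acid genes with the widest differences in TFPIα had smaller ones here. SCD had 10.14, 9.71 and 10.42 on TFPIβ arrays against 9.90, 9.43 and 9.90 on empty vector arrays (0.35, standard error 0.21), and FADS1 had 9.21, 8.62 and 9.14 against 8.86, 8.61 and 8.64 (0.28, standard error 0.16). FASN had 8.15, 8.17 and 9.12 on TFPIβ arrays against 8.13, 8.25 and 8.32 on empty vector arrays, a difference carried by replicate 3. SREBF1 had 7.30, 7.08 and 6.44 on TFPIβ arrays against 6.94, 6.97 and 6.66 on empty vector arrays, with an interval of -0.49 to 0.66. The mevalonate steps had a median of 0.08, the sterol steps one of -0.04, and of these SQLE had the widest difference at 0.31 (standard error 0.26), which was 0.03 without TFPIβ replicate 3 and 0.17 without empty vector replicate 2. With the replicate number as a block, 2 members were higher and 2 lower at an unadjusted p under 0.05, against 3.64% and 3.51% of all probe sets, at a lowest adjusted p of 0.575.

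Set directly against each other, TFPIβ arrays had lower signals than TFPIα arrays for 26 of the 31 members. The median log2 fold change of TFPIβ over TFPIα was -0.19, against 0.00 over all probe sets tested. None of the members was called, as 0% of all probe sets were, although 688 probe sets higher and 821 lower in TFPIβ had an unadjusted p under 0.05 and the one-way model also called 0. At that unadjusted p, 0 members were higher and 0 lower, against 3.94% and 4.70% of all probe sets, and the lowest adjusted p of a member was 0.532. The groups did not overlap for 0 members that were higher and 1 that was lower, PMVK, against 6.15% and 7.10%. DHCR7 had 9.23, 8.58 and 9.28 on TFPIβ arrays against 9.61, 9.23 and 9.47 on TFPIα arrays, lower within each number (-0.40, standard error 0.21). EBP had 8.88, 8.34 and 9.01 on TFPIβ arrays against 9.39, 8.88 and 9.21 on TFPIα arrays, also lower within each number (-0.41, standard error 0.21). All 7 mevalonate steps and 8 of 9 fatty acid genes lay below 0, whereas 3 of 5 sensing genes lay above it. With the replicate number as a block, 12 members were lower at an unadjusted p under 0.05 and 0 higher, against 9.21% and 6.19% of all probe sets, at a lowest adjusted p of 0.320. Without TFPIβ replicate 3, 11 were lower, against 14.1%, at a lowest adjusted p of 0.117.

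The replicate number separated the members across the labelled groups. In an additive fit of group and number, an F test of the number had an unadjusted p under 0.05 for 18 of 31 members, against 16.0% of all probe sets, while at an adjusted p under 0.05 it called 0 members and 0% of all probe sets. The lowest adjusted p of a member was 0.176, for ACSS2. Replicate 2 had the lowest signal in all 3 groups for 16 of 31 members, against 7.54% of all probe sets. Centring the arrays on their medians, an alternative chosen after the data were seen, left 13 members, against 5.98%, and centring on the medians of the tested probe sets left 12, against 4.84%. Replicate 1 lay above replicate 2 for 29 of 31 members, against 58.2% of all probe sets, with a median difference of 0.27 against 0.03. Replicate 2 lay above replicate 3 for 7 members, against 49.8%, with a median of -0.27 against 0.00. Replicate 1 lay above replicate 3 for 21 members, against 54.8%, with a median of 0.06 against 0.02.

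The 16 members lowest on replicate 2 spanned the roles: the mevalonate genes ACAT2, HMGCS1, MVK, MVD and FDPS, the sterol genes CYP51A1, MSMO1, EBP and DHCR7, SREBF2, and the fatty acid genes ACLY, ACSS2, ELOVL6, SCD, FADS1 and FADS2. ACAT2 had the largest difference, with 9.23, 8.70 and 8.88 on replicate 1 against 8.77, 7.80 and 7.89 on replicate 2 of TFPIα, TFPIβ and empty vector (0.78, standard error 0.20). MVK had 7.04, 6.66 and 6.71 on replicate 1 against 6.31, 6.25 and 6.13 on replicate 2 in the same order of groups (0.58, standard error 0.10), so that its numbers did not overlap. DHCR7 had a difference of 0.51 (standard error 0.11) and EBP one of 0.50 (standard error 0.12). CYP51A1 had 10.43, 10.23 and 10.44 on replicate 1 against 10.06, 9.92 and 9.99 on replicate 2 (0.38, standard error 0.08), and its second probe set was likewise lowest on replicate 2 in each group. ACSS2 had 7.57, 7.38 and 7.68 on replicate 1 against 7.15, 6.96 and 7.18 on replicate 2 (0.45, standard error 0.07).

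A second pattern set replicate 3 apart. Its signal was the highest in all 3 groups for 7 members, against 6.58% of all probe sets: SQLE, MSMO1 and the fatty acid genes ACLY, ACACA, FASN, ELOVL6 and SCD. FASN lay 0.53 lower on replicate 1 than on replicate 3 (standard error 0.18), and SQLE likewise by 0.53 (standard error 0.17). Replicate 3 was the lowest in all 3 groups for 3 members, LPIN1, SREBF1 and SCAP, against 8.30% of all probe sets, a share near that of the members. Centring the arrays on their medians left 2 of these, against 7.84%. Centring on the medians of the tested probe sets also left 2, against 10.4%, so being lowest on replicate 3 was no trait of the members. LPIN1 had 9.03, 8.85 and 8.62 on replicate 1 against 8.12, 7.96 and 8.21 on replicate 3 (0.73, standard error 0.19), and 8.42, 8.83 and 9.05 on replicate 2. SREBF1 had 7.29, 7.30 and 6.94 on replicate 1 against 6.61, 6.44 and 6.66 on replicate 3 (0.61, standard error 0.15). SREBF1 thus differed between these numbers in the opposite direction to those 5 enzymes, which were named for being highest on replicate 3. The other 4 fatty acid genes lay higher on replicate 1 than on replicate 3, as SREBF1 did (LPIN1 0.73, FADS1 0.14, ACSS2 0.06 and FADS2 0.04). Replicate 1 was the highest in all 3 groups for 7 members (MVK, LSS, TM7SF2, SREBF2, STARD4, ACSS2 and FADS1), against 9.11%, and TM7SF2 had 6.0, 5.98 and 6.0 on replicate 1 against 5.57, 5.63 and 5.72 on replicate 3 (0.36, standard error 0.09).

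**Figure D4:**
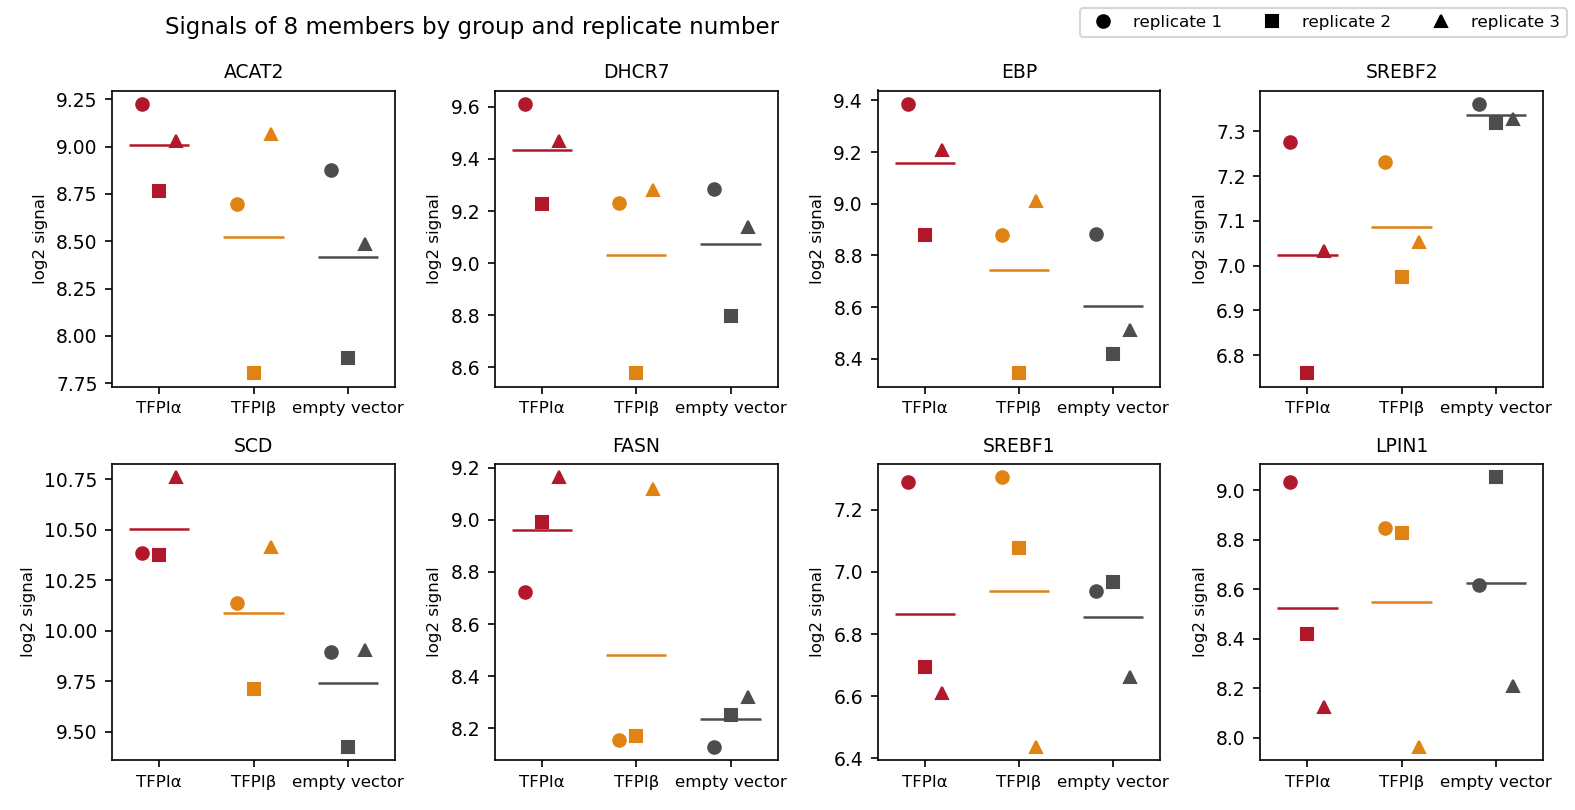
Log2 signals of 8 members on arrays labelled TFPIα, TFPIβ and empty vector, each panel with its own axis range. Symbols give the replicate number and lines the group means. ACAT2, DHCR7, EBP, SREBF2 and SCD are lowest on replicate 2 in each group, SREBF1 and LPIN1 are lowest on replicate 3, and FASN and SCD are highest on replicate 3.

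Proliferation markers moved in part with the members. The mean of 11 such genes (MKI67, TOP2A, CCNB1, CDK1, BUB1, PLK1, AURKA, TYMS, MCM2, PCNA and RRM2, all measured) was 8.81, 8.95 and 8.88 on the arrays labelled TFPIα, 8.10, 6.66 and 8.90 on those labelled TFPIβ and 8.19, 7.17 and 8.13 on those labelled empty vector. All 11 lay higher in TFPIα than in empty vector (median 1.12, 4 at an unadjusted p under 0.05, 0 called) and all 11 lower in TFPIβ than in TFPIα (median -1.07). The lowest arrays were those lowest for the members, replicate 2 of TFPIβ and of empty vector, but TFPIα replicate 2 was the lowest of its group for the members and the highest of it for these markers. Of the 11 markers 1 was lowest on replicate 2 in all 3 groups, against 16 of 31 members. The 4 housekeeping genes had a median of 0.33 for TFPIα against empty vector. Their mean was also lowest on TFPIβ replicate 2 (9.61) and empty vector replicate 2 (9.62), so these low arrays were not particular to proliferation markers. The part of proliferation in the differences of the members was not tested. Markers of other cell types were mostly dim: of 4 adipocyte genes only PLIN1 reached a signal of 5, PTPRC and CD3E of leukocytes lay at 2.19 to 3.76 whereas CD14 and CD68 lay at 6.46 to 9.12, and of 4 fibroblast genes only COL1A1 reached 5 (6.18 to 7.72).

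Genes around the pathway were counted in whole lists, and 0 were called in any comparison. In SREBP processing and sterol-dependent degradation, 4 of 6 genes were measured, and MBTPS1, the first protease that cleaves SREBP, had 8.25, 8.09 and 8.04 on TFPIα arrays and 8.18, 8.30 and 8.02 on TFPIβ arrays against 8.53, 8.47 and 8.51 on empty vector arrays. Both transfected groups lay below all 3 empty vector arrays (log2 fold change -0.38 and -0.34, standard error 0.10, adjusted p = 0.335 and 0.954). RNF139, a sterol-responsive ubiquitin ligase, had 0.21 and 0.36 (standard error 0.09). Among 7 genes of sterol trafficking, OSBP, the oxysterol-binding protein, had -0.32 and -0.38 (standard error 0.11) and SCARB1, the HDL receptor, 0.33 and 0.00 (standard error 0.10) for TFPIα and TFPIβ against empty vector. Of the LXR and sterol efflux genes 4 of 7 passed the filter, ABCA1 and ABCG1 did not, and MYLIP, a ligase that degrades lipoprotein receptors, had 0.45 and 0.45 (standard error 0.14).

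The lists of NADPH supply (4 of 5 tested) and of the isoprenoid branch (6 of 7) had medians of 0.22 and -0.04 for TFPIα against empty vector. In them ME1, the malic enzyme, had 0.35 (standard error 0.17) and PDSS1, of ubiquinone synthesis, 0.61 (standard error 0.25). The list of triglyceride and lipid droplet genes (7 of 8) had a median of -0.02. Fatty acid oxidation (7 of 8) had a median of 0.03, and its median for replicate 2 minus replicate 3 was 0.23, against -0.27 for the synthesis genes. The housekeeping genes likewise had -0.27 there, and the proliferation markers -0.98. A median above 0 was not particular to oxidation: the LXR and sterol efflux genes had 0.26, the luminal markers 0.22 and the basal markers 0.15. The lists of SREBP processing, sterol trafficking and NADPH supply lay slightly below 0 (-0.04, -0.06 and -0.02). For replicate 1 minus replicate 2 the oxidation genes had a median of -0.04, against 0.27 for the synthesis genes. PDK4, a kinase that diverts pyruvate away from acetyl-CoA, had 8.39, 8.70 and 8.80 on replicate 2 against 7.09, 7.76 and 7.63 on replicate 3 of TFPIα, TFPIβ and empty vector (1.14). On replicate 1 it had 8.32, 8.06 and 7.18 in the same order, and the adjusted p of its F test was 0.269.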

How the data were processed

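RMA in Partek Genomics Suite was the processing the authors applied (versions are not given in the sources used here). The deposited values are log2 signals, 1 per probe set, and the log base was read from their range. Of 33297 probe sets, the 17482 that reached a signal of 5 on at least 1 array were kept, with gene symbols from the array annotation. The groups shared 1 limma fit (version 3.58.1, R 4.3.3, lmFit with eBayes), and p-values were adjusted by Benjamini-Hochberg over all probe sets tested. The replicate number was tested with group and number as additive factors. The fit was tested on simulated data in which arrays and probe sets were drawn independently, apart from the differences put in. This checks the computation only, since effects shared by real arrays of the same number were left out.

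The members, the lists and the alternatives were chosen with earlier results of these data known. Values in every array are given for the members with the lowest p in a comparison (up to 4) or in the F test (up to 8) and for SREBF1, SREBF2, INSIG1 and FASN, and other lists name up to 4 genes by the size of their difference. The remaining per-array values, and the sequences shown, were chosen after the values were seen. Promoter windows came from RefSeq (GRCh38.p14). With the same number in different groups, deviations from group means had correlations of 0.137 to 0.594 over 9 pairs of arrays, against -0.512 to 0.266 over the 18 other pairs. Arrays of the same number thus tended to go together. The 2 ranges overlap, however, and deviations from a group mean sum to 0, which lowers the other pairs when same-number pairs are positive. Whether the numbers pair the arrays is therefore not settled, and each comparison of groups was repeated with the number as a block. Standard errors and adjusted p-values of single genes are from the limma fit without the block. With it, SCD had an adjusted p of 0.168 for TFPIα against empty vector, in place of 0.335. The number of arrays limits the precision.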

Additional observations from a re-analysis of the deposited data

How the results depend on the processing

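Members called stayed at 0 in all comparisons and in the F test of the replicate number under all alternatives that were run. Probe sets called in TFPIα against empty vector, 1 in all, went to 0 under the one-way model, with only the 2 compared groups, with no filter, with centred arrays and with a block for the replicate number, and to between 0 and 4 when single arrays were left out (4 without TFPIα replicate 3). In TFPIβ against TFPIα the block gave 1 in place of 0. Probe sets differing between replicate numbers went to 2 with no filter and to between 0 and 1 when single arrays were left out (1 without TFPIα replicate 3). The cause of these moves was not tested. Members highest on replicate 1 in all 3 groups went to 4 with either centring. Members with an unadjusted p under 0.05 in the F test numbered 10 to 18 without single arrays (10 without TFPIβ replicate 2, against 10.7% of all probe sets, and 18 without TFPIα replicate 2, against 23.3%) and 11 with no group term (10.1%). The share of all probe sets ran between 9.85% and 23.3% over these omissions. Of 49 member fold changes beyond 1 standard error, 0 changed sign under any alternative, and of 44 within it, 36 did. Many of the alternatives leave a fold change as it is, so its sign could move only with centring or without an array of the compared groups. Fold changes beyond 1 standard error also start further from 0 on that scale, so these counts are no test of robustness. The block changed no call of a member.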
